A study of Homo sapiens with 12 samples.

Results

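INA-6 is a human myeloma cell line that needs interleukin-6 to grow. The arrays described here compare INA-6 cells given the MEK inhibitor PD325901 with cells given the solvent DMSO, 4 arrays of each, 8 of the 12 arrays of the series. They were chosen by their titles and joined into 4 pairs by the replicate number in the title, 1 to 4. All probe sets other than Affymetrix controls were analysed, 54613 of 54675. The other 4 arrays hold cells given the Raf inhibitor SB590885 and serve only as a side comparison. Cells of all groups grew in RPMI1640 with 10% FCS and 2 ng/ml IL-6, so the DMSO cells were also cytokine-stimulated, and 100 ng of total RNA was used per array. Neither the concentration of PD325901 nor how long the cells were exposed to it is stated in those labels. INA-6 is 1 line, so differences between patients or lines were not measured, and p-values measure only the spread between these arrays.

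In the RAS-MAP kinase cascade, RAS at the membrane activates RAF kinases, RAF phosphorylates the kinases MEK1 and MEK2, and MEK phosphorylates ERK. Active ERK enters the nucleus and drives transcription through ETS and AP-1 factors. Some of the genes it induces act back on the cascade: dual-specificity phosphatases remove phosphate from ERK, and the Sprouty and SPRED proteins restrain RAS and RAF. PD325901 binds MEK and keeps it from activating ERK. In myeloma, RAS mutations and IL-6 both feed this cascade.

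Values are log2 expression levels per probe set, a difference is PD325901 minus DMSO on that scale, and a gene stands for its brightest probe set. The words rose and fell are used where limma, with the replicate number as a block, gave a Benjamini-Hochberg adjusted p under 0.05. SE is that of the paired difference. Because the RNA came from bulk cultures, fewer cells expressing a gene and less of its RNA per cell cannot be told apart.

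The labelled cell type was borne out by its markers, with several plasma cell genes among the brightest on the arrays. TNFRSF17 (the receptor BCMA) averaged 13.39 ± 0.16 with PD325901 and 12.96 ± 0.09 with DMSO (SD, n = 4 each), XBP1 12.96 ± 0.21 and 12.80 ± 0.23, and IRF4 11.90 ± 0.15 and 11.91 ± 0.05. The surface markers were less bright, SDC1 at 10.33 ± 0.28 and 10.75 ± 0.16 and CD38 at 9.71 ± 0.91 and 9.55 ± 0.95. CD38 was highest in replicate 2, at 11.01 with PD325901 and 10.95 with DMSO. Of B cell markers, MS4A1 averaged 6.70 and 6.64 and PAX5 7.43 and 7.72. Of 70 measured markers of T and NK cells, monocytes, fibroblasts, erythroid cells and endothelium, 61 averaged less than 1 log2 unit above the median of all values (6.92) in both groups. Among them were CD3D, CD3E, CD3G, CD14, CSF1R, LYZ, COL3A1, CDH5 and VWF, between 6.43 and 6.99. The other 9 were 3 of 22 T and NK cell markers, 2 of 14 fibroblast markers, 3 of 8 erythroid markers, 1 of 12 endothelial markers and 0 of 14 monocyte markers. The highest group means of these lists were 11.26 with PD325901 and 11.19 with DMSO for T and NK cells (CD247, a T cell receptor chain), 10.59 and 10.58 for fibroblasts (PDGFRA, a growth factor receptor), 9.80 and 9.59 for erythroid cells, 9.11 and 8.58 for endothelium (PECAM1) and 7.32 and 7.22 for monocytes. Of all 70 markers 5 rose, CD8B by 0.25, PECAM1 by 0.53 and 3 others. Their part in the results was not tested.

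A second label numbers replicates 1 and 2 of each group 1 and 2 and starts again at 1 and 2, with an R added, for replicates 3 and 4. The labels leave the R unexplained, and whether replicates 3 and 4 repeat the cultures of replicates 1 and 2 is not stated, so the 4 pairs may not be independent. The spread of values over probe sets (SD) was 1.54, 1.54, 1.38 and 1.4 on the PD325901 arrays of replicates 1 to 4, against 1.53, 1.55, 1.45 and 1.45 on the DMSO arrays, so that in both R pairs the PD325901 array was the narrower one. As a sign of RNA integrity, the 3' probe set for GAPDH exceeded the 5' one by 0.426 ± 0.057 with PD325901 and 0.371 ± 0.033 with DMSO. For ACTB this excess was 1.64 ± 0.10 and 1.58 ± 0.17. None of the 4 array measures tested differed in an exact two-sided sign-flip test, the lowest adjusted p being 0.5, and with 4 pairs the smallest unadjusted p possible is 0.125. Replicate 2 stood apart in both groups: its median over 39 interferon response genes was 10.85 with PD325901 and 10.89 with DMSO, while the other arrays lay between 7.35 and 7.65 and between 7.37 and 7.58.

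PD325901 changed many genes, most by little. Of 19775 genes, 746 rose (3.77%) and 2206 fell (11.2%). Only 1 gene rose and 25 fell by a log2 difference of 1 or more, and 48 rose and 124 fell by 0.5 or more. The largest changes were falls. DUSP6 measured 6.25-fold lower with PD325901, where it stood at the median of all values, and how far it lay above background there was not measured. The largest rise was 2.04-fold. Over all probe sets 1507 rose (2.76%) and 4292 fell (7.86%), and the median difference over all genes was -0.003. All 4 pairs had the same sign for 699 of the 746 genes that rose and for 2111 of the 2206 that fell. Without the block, which leaves the differences between pairs in the error, 10 genes rose and 64 fell.

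**Figure D1:**
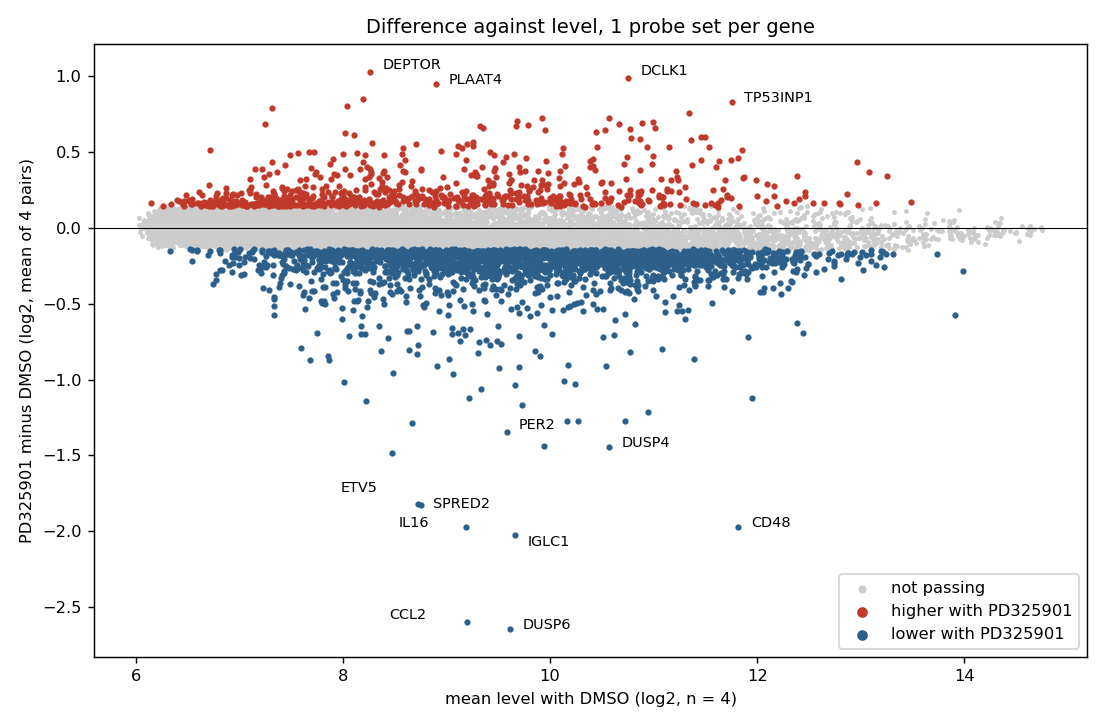
Mean paired difference, PD325901 minus DMSO (log2, 4 pairs), against the mean level with DMSO (log2, n = 4). Each point is 1 gene, red where it rose and blue where it fell. The falls of DUSP6 and CCL2 are the deepest, and the highest rise is that of DEPTOR at 1.03.

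The excess of falls over rises was tied to expression level and to the R-marked pairs. With a DMSO level under 7, 0.348% of genes fell over all 4 pairs, against 18.5% at 8 to 9. At 11 to 12 35.0% fell, and at 12 and above 18.5%. The share of falls to set beside a gene list thus depends on the level of its members. Among genes with a DMSO level of 10 to 11, 6.21% rose and 33.4% fell over all 4 pairs. In replicates 1 and 2 alone these shares were 8.75% and 12.7%, and in replicates 3 and 4 alone 2.60% and 39.3%. After quantile normalization of the 8 arrays, which gives them 1 common spread, the shares at that level were 14.6% and 13.6%. Over all levels, replicates 1 and 2 alone had 898 rises (4.54%) and 990 falls (5.01%), and replicates 3 and 4 alone 462 rises (2.34%) and 2389 falls (12.1%). Over all genes, 1296 rose (6.55%) and 1166 fell (5.9%) after quantile normalization. Rises were 26% of the calls over probe sets as deposited and 48.5% after quantile normalization. Of the genes that fell, 1139 still fell after quantile normalization and 945 in replicates 1 and 2 alone. A direct test of the difference between the sets of pairs, limma's interaction of treatment with the R mark, called 6 of 54613 probe sets (0.011%). The narrower spread of the R-marked PD325901 arrays moved with this excess, and its part in it was not tested further.

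**Figure D2:**
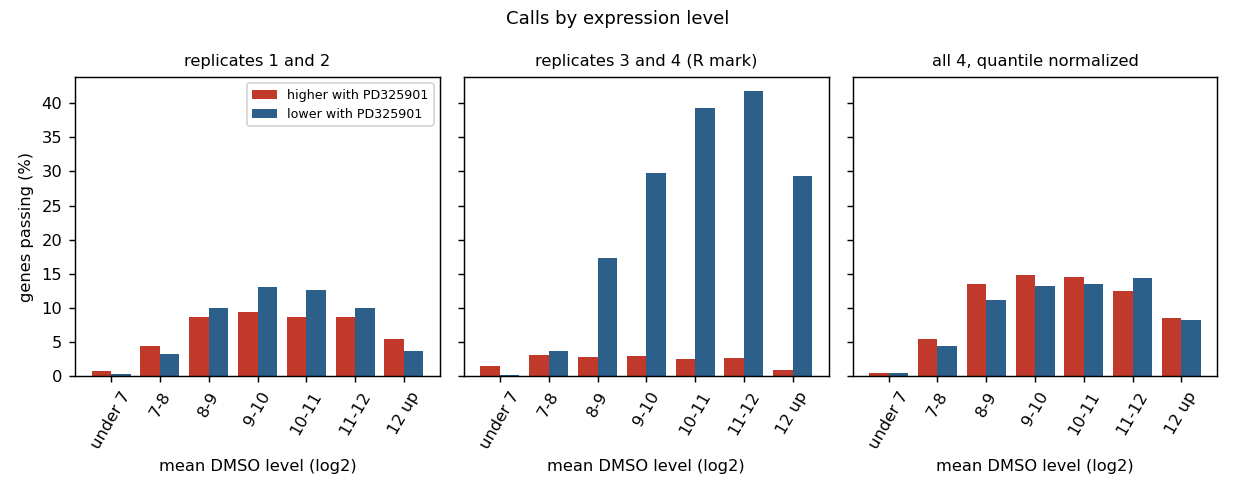
Share of genes (%) that rose (red) or fell (blue) with PD325901, by mean DMSO level (log2), in the pairs of replicates 1 and 2, in the R-marked pairs of replicates 3 and 4, and in all 4 pairs after quantile normalization. Falls of genes at 10 to 11 make up 12.7%, 39.3% and 13.6% in the 3 panels.

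Several feedback inhibitors of the ERK pathway were among the largest falls. DUSP6, the cytoplasmic phosphatase that removes phosphate from ERK, stood at 7.07, 7.21, 6.63 and 6.98 on the PD325901 arrays, against 9.79, 9.89, 9.48 and 9.31 on the DMSO arrays. The highest PD325901 array lay more than 2 log2 units below the lowest DMSO array, and DUSP6 with PD325901 was close to the median of all probe sets. Its paired difference was -2.64 (SE 0.056, limma adjusted p = 4.68e-30). Its other probe sets gave -2.76 and -1.81.

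DUSP4, a nuclear phosphatase of the same family, read 9.15, 9.20, 9.09 and 9.07 with PD325901 and 10.57, 10.53, 10.49 and 10.69 with DMSO. The groups were far apart, but unlike DUSP6 the gene kept a level well above the median (difference -1.44, SE 0.049, adjusted p = 2.81e-23). DUSP5, a nuclear phosphatase specific for ERK, fell by 1.12 (SE 0.046), with 7.77 to 8.58 on PD325901 arrays and 8.92 to 9.67 on DMSO arrays. DUSP7 fell less, by 0.31 (SE 0.047). Other members of the family moved the other way or not measurably: DUSP8 and DUSP16, which act mainly on JNK and p38, rose by 0.18 and 0.17, while DUSP1, DUSP2 and DUSP10 had differences of -0.08, 0.04 and -0.10 that did not pass.

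The SPRED proteins, which bring the RAS-inactivating protein neurofibromin to the membrane, also fell. SPRED2 read 6.83, 6.93, 6.99 and 6.95 with PD325901, against 8.84, 8.93, 8.53 and 8.72 with DMSO. All PD325901 arrays were within 0.1 of the median of all probe sets. SPRED1 read 7.23, 7.18, 6.82 and 6.71 with PD325901 and 8.83, 8.68, 8.23 and 8.14 with DMSO. Both groups of SPRED1 were higher in replicates 1 and 2, and the paired differences kept to between -1.60 and -1.41. The limma estimates were -1.83 for SPRED2 (SE 0.056, adjusted p = 7.51e-25) and -1.49 for SPRED1 (SE 0.048, adjusted p = 4.56e-24).

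Among the Sprouty genes SPRY1 fell by 0.43 (SE 0.047), with 7.38 to 7.56 on PD325901 arrays and 7.79 to 8.07 on DMSO arrays. SPRY2 and SPRY4 lay near the median in both groups, with differences of -0.03 and 0.01 that did not pass. RASA2, which speeds GTP hydrolysis by RAS, fell by 0.42 (SE 0.050), and PEA15, which holds ERK in the cytoplasm, by 0.26. Of 27 measured feedback phosphatases and inhibitors, 10 fell (37.0%, against 11.2% of all genes) and 2 rose (7.41%, against 3.77%). The median difference was -0.07. After quantile normalization 9 fell and 2 rose, 8 fell in replicates 1 and 2 alone, and 4 fell without the block. DUSP6, DUSP4, SPRED1 and SPRED2 passed without the block, while DUSP5 did not.

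A shorter list of genes often read as output of the pathway overlaps with the feedback list and held 10 genes, of which 4 fell: DUSP6, DUSP4, ETV5 and ETV4. No call was made for SPRY2 and SPRY4, nor for PHLDA1, the ephrin receptors EPHA2 and EPHA4, or CCND1. CCND1, the cyclin D1 gene, is well expressed in this line and read 10.61, 10.65, 10.26 and 10.17 with PD325901, against 10.63, 10.70, 10.54 and 10.32 with DMSO. The groups overlapped, and the difference was -0.12 (SE 0.049, adjusted p = 0.117). For PHLDA1 and EPHA4 the brightest probe set did not pass, but weaker probe sets did. PHLDA1 had 2 of 6 probe sets that fell, by 0.26 and 0.17, and EPHA4 had 1 of 5, by 0.25.

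**Figure D3:**
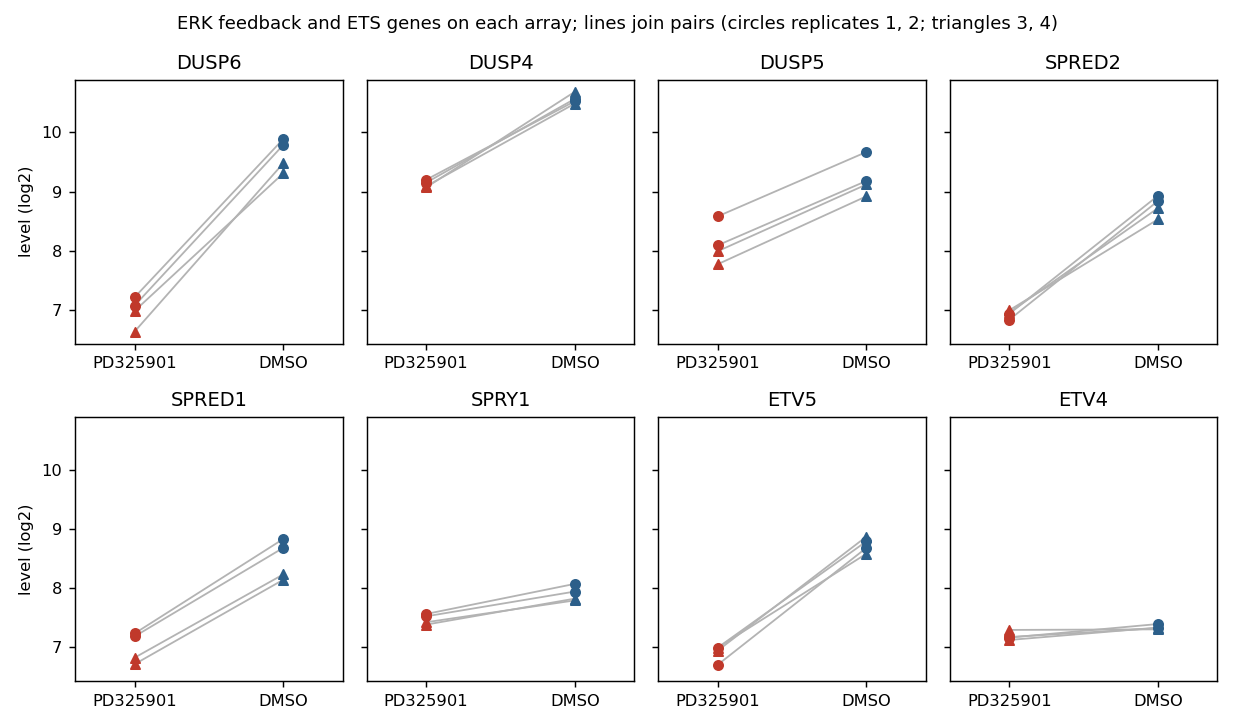
Levels (log2) of 8 genes of the ERK feedback and ETS groups on each PD325901 and DMSO array, with lines joining the arrays of 1 replicate number (circles replicates 1 and 2, triangles replicates 3 and 4). Every line of DUSP6, DUSP4, DUSP5, SPRED2, SPRED1, SPRY1 and ETV5 runs lower at PD325901, and ETV4 stays near 7.3.

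The genes of the cascade itself hardly moved. Of 21 measured RAS, RAF, MEK and ERK genes and close partners, 1 fell, PTPN11, the phosphatase SHP2, by 0.14 (adjusted p = 0.049), and none rose (limma, 6 lower and 1 higher at an unadjusted p under 0.05). ARAF had a difference of -0.04, MAP2K1, which encodes MEK1, of -0.13, MAP2K2, which encodes MEK2, of -0.05, and MAPK3, which encodes ERK1, of 0.06. The directions for ARAF and MAP2K2 turned after quantile normalization, to 0.02 and 0.03. MAP2K1 averaged near 10 in both groups, with PD325901 arrays from 9.77 to 10.19 and DMSO arrays from 9.99 to 10.20.

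Among 27 ETS transcription factors, the DNA-binding family through which ERK acts, 8 fell (29.6%, against 11.2% of all genes) and 0 rose. At an unadjusted limma p under 0.05, 2 were higher. ETV5 read 6.70, 6.99, 6.99 and 6.94 with PD325901, against 8.68, 8.79, 8.58 and 8.87 with DMSO. Its PD325901 values were at the median of all probe sets, and the groups did not overlap (difference -1.82, SE 0.052, adjusted p = 1.01e-25). Of its 5 probe sets 4 fell. ETV4, its close relative, was weak in both groups and fell by 0.15 (adjusted p = 0.045). The ERK-phosphorylated factors ELK4 and ELK3 fell by 0.43 and 0.34, ELF4 by 0.37 and ETV6 by 0.31. FLI1 fell by 0.21. After quantile normalization 6 fell and 1 rose.

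Immediate early and AP-1 genes split. JUN, the core AP-1 subunit, read 11.45, 11.45, 11.25 and 11.02 with PD325901, against 10.60, 10.91, 10.65 and 10.12 with DMSO. Every PD325901 array was above every DMSO array, and the difference was 0.72 (SE 0.053, adjusted p = 2.25e-13). JUND rose by 0.56, the stress factor ATF3 by 0.33 and KLF6 by 0.30. FOS, the classical immediate early partner of JUN, read 6.72 to 7.45 with PD325901 and 6.77 to 7.70 with DMSO and fell by 0.28 (SE 0.054). MAFF, a small MAF factor, fell by 0.68 and ZFP36L2, which shortens mRNAs with AU-rich elements, by 0.55. EGR1 was near the median in both groups, with a difference of -0.01 that did not pass. In all, 5 of 34 members rose (14.7%, against 3.77% of all genes) and 6 fell (17.6%, against 11.2%). The counts were the same after quantile normalization. In the fit without the block 0 passed, with 2 higher and 4 lower at an unadjusted limma p under 0.05.

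MYC, which codes for the growth-driving factor, did not pass (0.11, SE 0.048, adjusted p = 0.146), with 12.16 to 12.68 on PD325901 arrays and 12.14 to 12.47 on DMSO arrays. Of its partners and antagonists, MXI1, a MAX-binding repressor, rose by 0.40, MXD3 rose by 0.15, MAX fell by 0.25 and MYCL by 0.20.

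Beyond the cascade, the 20 largest falls included genes of immune signalling and kinases. CCL2, the chemokine that attracts monocytes, read 6.57, 6.57, 6.66 and 6.61 with PD325901, against 9.07, 9.12, 9.24 and 9.38 with DMSO. It was thus under the median of all probe sets on every PD325901 array (difference -2.60, SE 0.049, adjusted p = 9.05e-32). IL16, a chemoattractant for CD4+ cells, read 7.08, 7.16, 7.28 and 7.36 with PD325901 and 9.28, 8.84, 9.24 and 9.39 with DMSO. The groups were well separated, and the difference was -1.97 (SE 0.056).

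CD48, a surface receptor of the SLAM family that is carried by most blood cells, read 9.89, 10.84, 9.27 and 9.38 with PD325901, against 11.81, 12.29, 11.47 and 11.71 with DMSO. It remained well expressed, with replicate 2 the highest in both groups (difference -1.97, SE 0.072). LY9, another SLAM receptor, fell by 0.50 and CD58, the CD2 ligand, by 0.15, and 10 of 13 members of the SLAM list did not pass. Without the block CD48 did not pass.

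IGLC1, the immunoglobulin lambda constant gene, read 7.55, 8.51, 7.32 and 7.17 with PD325901 and 9.60, 10.42, 9.47 and 9.16 with DMSO. Its difference of -2.03 (SE 0.049) came with -1.47 on a second probe set and with 7 other probe sets between -0.13 and 0.05 that did not pass. Probe sets of immunoglobulin genes can detect related segments, so the segment is uncertain. The kappa constant gene IGKC was far brighter, with 13.22 to 13.87 on PD325901 arrays and 12.93 to 13.46 on DMSO arrays, and rose by 0.37 (SE 0.049).

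PER2, a repressor of the circadian clock, read 8.48, 8.47, 8.0 and 7.99 with PD325901, against 9.80, 9.67, 9.41 and 9.45 with DMSO, a fall of 1.34 (SE 0.049). SYPL1, a vesicle membrane protein, fell by 1.44, and ST8SIA4, which builds polysialic acid chains, by 1.29. Among kinases, PRKD2 (protein kinase D2) fell by 1.28, STK17A by 1.27 and SGK1, a kinase related to AKT, by 1.12. ID2, which blocks basic helix-loop-helix factors, read 10.13, 10.51, 9.33 and 8.96 with PD325901 and 11.12, 11.40, 10.80 and 10.45 with DMSO. It is the 1 gene of the 20 whose groups overlapped, since its R-marked arrays were lower in both groups, yet all 4 pairs fell. TRAF3IP3, an adaptor of TRAF3, fell by 1.17 and RAB11FIP1, an effector of recycling endosomes, by 1.14. All 20 had falls in 4 of 4 pairs, which the choice of these genes required. The groups did not overlap for 19 of them, and for 4.09% of all genes, and nothing is read from this since size chose them.

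The largest rises were smaller and of mixed function. DEPTOR, which binds and inhibits the kinase mTOR and is known for high levels in some myelomas, read 9.62, 9.25, 9.12 and 9.16 with PD325901, against 8.54, 8.13, 8.28 and 8.09 with DMSO. The groups did not overlap, and the difference was 1.03 (SE 0.049, adjusted p = 1.24e-18). DCLK1, a microtubule-binding kinase, read 12.05, 11.80, 11.68 and 11.45 with PD325901 and 11.03, 10.70, 10.81 and 10.48 with DMSO. Its groups were likewise apart (0.99, SE 0.048).

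PLAAT4 and PLAAT2, acyltransferases of phospholipids, rose by 0.95 and 0.85. TP53INP1, a stress-induced partner of p53, stood at 12.38 to 12.92 with PD325901 and 11.42 to 12.04 with DMSO and rose by 0.83. RASSF6, a RAS association domain protein, rose by 0.81 and EAF2, a partner of the elongation factor ELL, by 0.76. PTPRZ1, a receptor tyrosine phosphatase, rose by 0.72, MACROD2 by 0.70, and the splicing regulator MBNL2 by 0.67. NMRK1, which makes nicotinamide mononucleotide, also rose by 0.67. Others of the 20 are described with their groups. In 17 of the 20 the mean rise was smaller in the R-marked pairs, and in 14 of the 20 largest falls the mean fall was larger there. Without the block, 3 of the 20 rises passed, DEPTOR, DCLK1 and EAF2, as did 14 of the 20 falls.

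**Figure D4:**
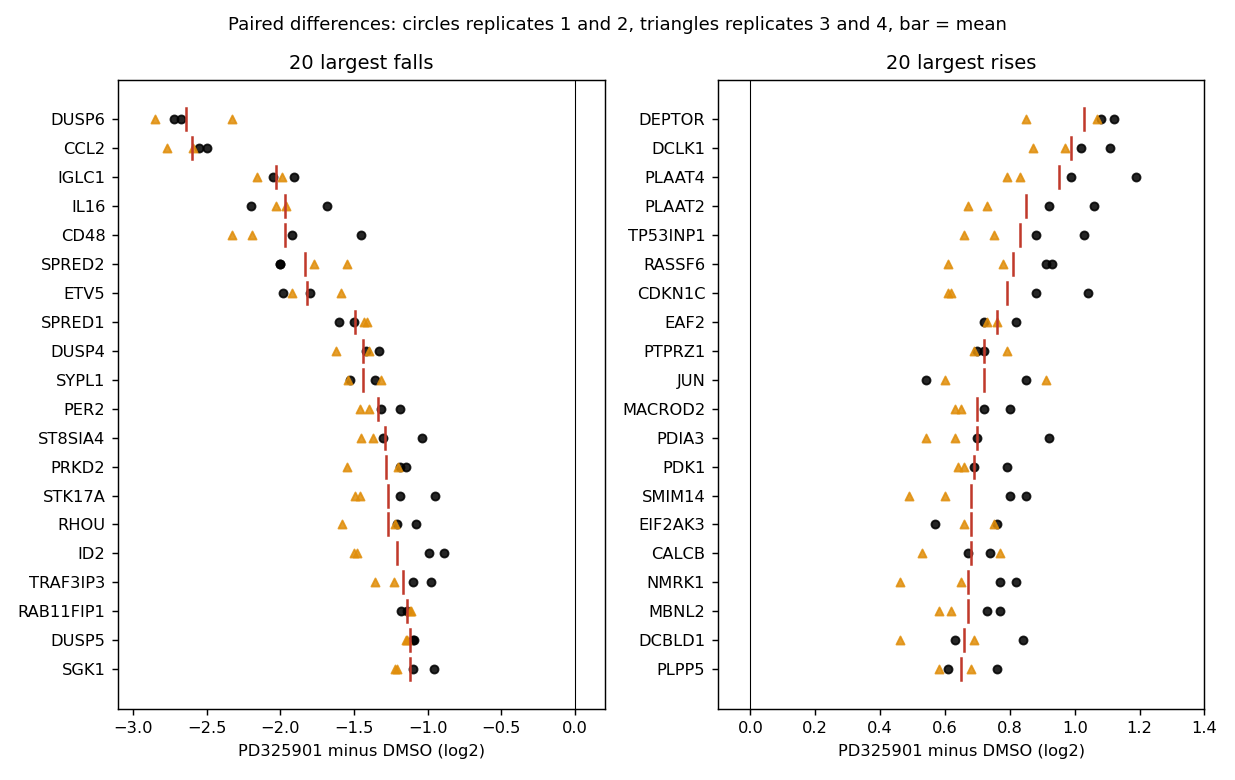
Paired differences, PD325901 minus DMSO (log2), of the 20 largest falls (left) and the 20 largest rises (right). Circles are replicates 1 and 2, triangles the R-marked replicates 3 and 4, and the bar is the mean of 4 pairs. No pair crosses 0, and the scale of the rises is narrower than that of the falls.

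Cell cycle genes moved in both directions. CDKN1C (p57), a CDK inhibitor, read 8.14, 8.97, 7.58 and 7.73 with PD325901, against 7.26, 7.92, 6.96 and 7.12 with DMSO. The groups overlapped across replicates, but each pair rose (difference 0.79, SE 0.055). CDKN1A (p21) read 9.31, 9.24, 9.17 and 9.32 with PD325901 and 8.64, 8.76, 8.68 and 8.74 with DMSO. It was separated in all arrays (0.55, SE 0.048). CDKN2B (p15) rose by 0.43 and CDKN1B (p27) by 0.32.

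CCNE1, the cyclin E1 that drives entry into S phase, read 9.48, 9.40, 9.18 and 9.02 with PD325901, against 10.31, 10.24, 10.11 and 10.02 with DMSO, a fall of 0.90 (SE 0.047, adjusted p = 2.06e-17). RB1 and RBL1, the retinoblastoma proteins that restrain entry into S phase, fell by 0.49 and 0.24, the kinase genes CDK4 by 0.23 and CDK2 by 0.22. Of 17 members of the cyclin and CDK list, 4 rose (23.5%, against 3.77% of all genes) and 5 fell (29.4%, against 11.2%). The median DMSO level of the list was 10.04, and 33.4% of all genes at 10 to 11 fell. After quantile normalization 6 rose and 4 fell.

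Of 38 DNA replication and G1-S genes, 22 fell (57.9%, against 11.2% of all genes) and 0 rose, with a median difference of -0.16. The median DMSO level of the list was 10.87, and 33.4% of all genes at 10 to 11 fell. In this list, in ribosome biogenesis and in the heat shock genes, 0 members were higher even at an unadjusted limma p under 0.05. The falls were small: RFC3, a clamp loader subunit, fell by 0.35, UHRF1, which maintains DNA methylation, by 0.34, the helicase subunit MCM6 by 0.31 and PCNA by 0.23. After quantile normalization 10 fell and 1 rose, as in replicates 1 and 2 alone, while 20 fell in the R-marked pairs alone. None passed without the block, where 14 were lower at an unadjusted limma p under 0.05. Mitosis genes fell in 7 of 34 cases (20.6%), with KIF23 at -0.24 and MKI67, the proliferation antigen, at -0.19. Their median DMSO level was 11.05, and 35.0% of all genes at 11 to 12 fell, so the share of falls was not above that of their level. After quantile normalization 1 fell and 1 rose, so the mitosis count did not hold under that scaling. In replicates 1 and 2 alone 1 fell and 1 rose, and in the R-marked pairs alone 9 fell. Without the block 0 mitosis genes passed, and 3 were lower at an unadjusted limma p under 0.05.

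Ribosome biogenesis and MYC target genes, which build ribosomes in the nucleolus, fell in 24 of 35 cases (68.6%) and rose in 0, with a median of -0.21. Among all genes 11.2% fell and 3.77% rose. The median DMSO level of the list was 10.55, and 33.4% of all genes at 10 to 11 fell. LYAR, a nucleolar growth regulator, read 12.04, 11.93, 11.54 and 11.53 with PD325901, against 12.67, 12.35, 12.23 and 12.29 with DMSO. All PD325901 arrays were below all DMSO arrays, and the difference was -0.63 (SE 0.051, adjusted p = 3.82e-12). Nucleolar factors NPM3, WDR43, NIP7 and RCL1 fell by 0.33, 0.32, 0.32 and 0.32. After quantile normalization 16 fell, with a median of -0.14, 14 fell in replicates 1 and 2 alone, and 23 in the R-marked pairs alone. None passed without the block, where 18 were lower at an unadjusted limma p under 0.05. The 31 measured cytosolic ribosomal protein genes had 0 rises and 0 falls, and 1 was lower at an unadjusted limma p under 0.05.

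Genes of protein folding in the endoplasmic reticulum (ER) had the highest share of rises among the 42 lists. The unfolded protein response matches ER folding capacity to secretory load, through the sensors PERK, IRE1 and ATF6, and plasma cells depend on it because they secrete antibody. Of 27 measured members, 21 rose (77.8%) and 1 fell, with a median difference of 0.23. Among all genes 3.77% rose and 11.2% fell. The median DMSO level of the list was 10.99, and 6.21% of all genes at 10 to 11 rose and 33.4% fell. After quantile normalization 24 rose and 1 fell (median 0.31). In replicates 1 and 2 alone 22 rose, in the R-marked pairs alone 11 rose. None passed without the block, where 13 were higher at an unadjusted limma p under 0.05.

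PDIA3, which forms disulfide bonds in glycoproteins, read 11.91, 12.01, 11.51 and 11.32 with PD325901, against 10.99, 11.31, 10.97 and 10.69 with DMSO. The lowest PD325901 array was just above the highest DMSO array, and the difference was 0.70 (SE 0.052, adjusted p = 3.61e-13). EIF2AK3, which encodes the sensor PERK, read 11.46, 11.74, 11.19 and 10.99 with PD325901 and 10.71, 11.17, 10.44 and 10.32 with DMSO. Its groups overlapped only through replicate 2 of DMSO (0.68, SE 0.048). DNAJB9, a co-chaperone that restrains IRE1, read 11.25, 11.53, 10.76 and 10.79 with PD325901 and 10.54, 10.94, 10.08 and 10.23 with DMSO. Each pair rose by at least 0.56, with a mean of 0.63 (SE 0.047).

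CRELD2, an ER protein that is secreted under stress, rose by 0.59, SEL1L, an anchor of ER-associated degradation, by 0.45, DNAJC3 by 0.44 and the chaperone HSP90B1 (GRP94) by 0.42. PDIA4 rose by 0.33, MANF by 0.31, HYOU1 by 0.28 and HERPUD1 by 0.25. HSPA5, the main ER chaperone BiP, was among the brightest genes, with 13.44 to 13.94 on PD325901 arrays and 13.30 to 13.81 on DMSO arrays, and rose by 0.17 (adjusted p = 0.0196). XBP1, the transcription factor made active by IRE1, rose by 0.16 (adjusted p = 0.0477) in 3 of 4 pairs. ERN1, which encodes IRE1 itself, was the 1 member that fell, by 0.24. CALR, CANX and PDIA6 did not pass, with differences of 0.10, 0.02 and 0.11.

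The promoters of this group were searched for the ER stress response element, to which ATF6 binds together with NF-Y. The element (ERSE) was spelled CCAAT, 9 bases of any kind and CCACG, and its short form (ERSE-II) ATTGG, 1 base of any kind and CCACG. Both were searched on either strand in RefSeq promoters of GRCh38.p14, windows of 300 bases that end 50 bases after the gene start. ERSE was found in 6 of 24 members with a promoter (25%), against 22 of 27305 promoters in all (0.0806%). ERSE-II was found in 3 (12.5%), against 15 in all (0.0549%). The list was made of known genes of this response, so the contrast with all promoters describes the list and not an effect of PD325901. Of the 18 members that rose and had a promoter, 4 held ERSE (22.2%) and 3 held ERSE-II. CALR and CANX held ERSE and did not pass, while PDIA3 and DNAJB9 rose and had no match of either spelling. The 4 promoters that follow show the element in genes that rose, its CCAAT and CCACG blocks in capitals for ERSE and the whole element in capitals for ERSE-II. For CRELD2 the element is on the opposite strand and reads CGTGG and then ATTGG. HSPA5 lies at chr9:125241294-125241593 on the minus strand, XBP1 at chr22:28800520-28800819 on the minus strand, CRELD2 at chr22:49918384-49918683 on the plus strand and HERPUD1 at chr16:56931892-56932191 on the plus strand.
HSPA5: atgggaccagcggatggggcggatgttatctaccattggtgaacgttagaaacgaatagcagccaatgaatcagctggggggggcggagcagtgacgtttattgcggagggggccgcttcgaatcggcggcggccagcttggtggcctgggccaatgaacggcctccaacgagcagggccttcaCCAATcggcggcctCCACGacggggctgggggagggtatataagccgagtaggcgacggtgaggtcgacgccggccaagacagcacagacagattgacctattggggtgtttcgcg
XBP1: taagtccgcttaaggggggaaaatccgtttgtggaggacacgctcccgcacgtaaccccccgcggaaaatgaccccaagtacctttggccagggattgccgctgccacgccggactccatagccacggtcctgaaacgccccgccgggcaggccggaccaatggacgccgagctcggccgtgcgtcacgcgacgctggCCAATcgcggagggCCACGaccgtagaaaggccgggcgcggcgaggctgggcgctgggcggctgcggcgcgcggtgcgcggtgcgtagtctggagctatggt
CRELD2: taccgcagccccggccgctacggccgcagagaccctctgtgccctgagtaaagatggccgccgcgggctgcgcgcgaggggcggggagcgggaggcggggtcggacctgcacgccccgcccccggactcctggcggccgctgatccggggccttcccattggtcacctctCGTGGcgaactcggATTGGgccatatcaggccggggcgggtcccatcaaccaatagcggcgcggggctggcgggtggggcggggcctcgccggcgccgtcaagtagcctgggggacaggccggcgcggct
HERPUD1: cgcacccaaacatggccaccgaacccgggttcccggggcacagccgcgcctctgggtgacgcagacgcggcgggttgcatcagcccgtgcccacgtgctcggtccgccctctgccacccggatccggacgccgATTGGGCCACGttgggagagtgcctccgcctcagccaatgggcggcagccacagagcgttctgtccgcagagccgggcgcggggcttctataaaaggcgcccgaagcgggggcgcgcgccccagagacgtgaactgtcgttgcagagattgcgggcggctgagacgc

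The elements began at positions -66, -52, -80 and -117 from the gene start in HSPA5, XBP1, CRELD2 and HERPUD1. The same search for an ETS core (CCGGAAG, in 10.7% of all promoters), AP-1 (TGANTCA, 7.76%) and CRE (TGACGTCA, 1.98%) found 0 matches among the 14 of the 20 largest falls with a promoter. Among the 20 largest rises, 11 had a promoter, 2 with the ETS core (EAF2 and EIF2AK3) and 2 with AP-1 (DCLK1 and MBNL2). A match is a run of letters and no measured binding, and these windows leave out introns and distant elements.

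Plasma cell identity genes rose more often than they fell, 9 (37.5%) against 3 (12.5%) of 24, with a median of 0.11. Among all genes 3.77% rose and 11.2% fell. TNFRSF17 read 13.57, 13.46, 13.20 and 13.33 with PD325901, against 13.05, 13.03, 12.91 and 12.86 with DMSO, a rise of 0.43 (SE 0.048) with no overlap. CAV1, the caveolin gene, rose by 0.65, MZB1, a chaperone of antibody assembly, by 0.31, and PRDM1, the transcription factor Blimp-1, by 0.20. SDC1, the surface proteoglycan CD138, fell by 0.41 and FCRL5 by 0.30, while IRF4 did not pass. After quantile normalization 14 rose and 3 fell, and 4 rose in the R-marked pairs alone. None passed without the block, where 4 were higher and 3 lower at an unadjusted limma p under 0.05. DERL3 and XBP1 are also members of the ER list. Among 19 B cell genes, the adaptor BLNK rose by 0.48 and PAX5, a weakly expressed B cell factor here, fell by 0.29.

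Cytosolic and mitochondrial heat shock genes were lower, in contrast to the ER chaperones. Of 16 measured, 10 fell (62.5%, against 11.2% of all genes) and 0 rose, with a median of -0.20. The median DMSO level of the list was 10.93, and 33.4% of all genes at 10 to 11 fell. HSPH1 read 11.37, 11.69, 11.25 and 11.14 with PD325901 and 11.72, 11.95, 11.62 and 11.51 with DMSO, and the groups overlapped through replicate 2 of PD325901 (difference -0.34, SE 0.047). DNAJA1 fell by 0.34, DNAJB1 by 0.33 and HSPE1 by 0.28. After quantile normalization 8 fell, 6 fell in replicates 1 and 2 alone, and 10 in the R-marked pairs alone. None passed without the block, where 6 were lower at an unadjusted limma p under 0.05.

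**Figure D5:**
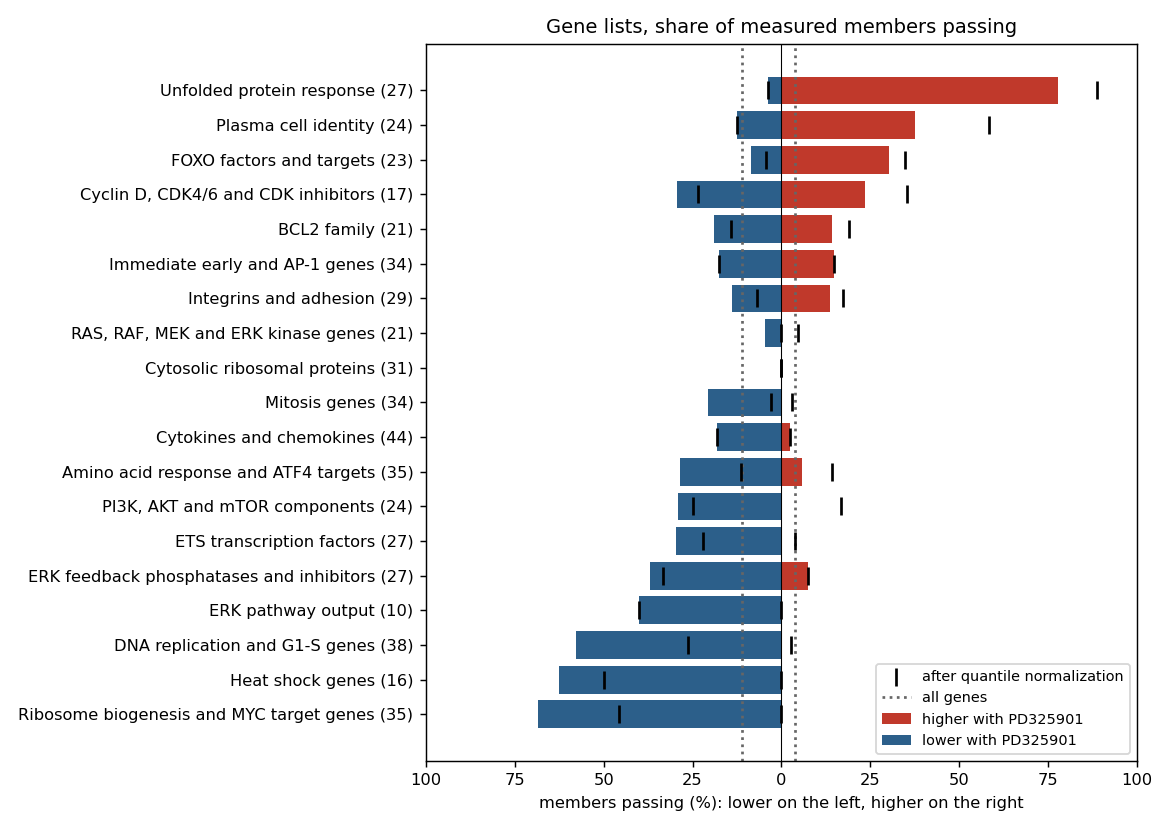
Share of the measured members of 19 gene lists (%) that fell (blue, to the left) or rose (red, to the right) with PD325901, with the number measured in brackets. Black ticks mark the shares after quantile normalization and dotted lines the shares among all genes, 11.2% and 3.77%. The unfolded protein response has the longest red bar and ribosome biogenesis the longest blue one.

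In the BCL2 family 3 of 21 members rose (14.3%, against 3.77% of all genes) and 4 fell (19.0%, against 11.2%). Their median DMSO level was 8.29, and 18.5% of all genes at 8 to 9 fell. In the fit without the block 0 passed, with 1 higher and 3 lower at an unadjusted limma p under 0.05. BCL2L11 (BIM), a killer protein that ERK marks for degradation, read 10.95, 10.86, 10.32 and 10.47 with PD325901, against 10.41, 10.33, 9.99 and 9.76 with DMSO. Every pair rose, although the R-marked PD325901 arrays overlapped with the DMSO arrays of replicates 1 and 2 (0.53, SE 0.051, adjusted p = 4.28e-10). MCL1, the survival protein on which many myeloma cells depend, rose by 0.18 (adjusted p = 0.0147). PMAIP1 (NOXA), which binds MCL1, fell by 0.47 and BID by 0.32. BCL2 and BCL2L1 did not pass, at 0.02 and -0.07.

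Several targets of FOXO factors, which AKT holds out of the nucleus, rose. Of 23 members of the FOXO list 7 rose (30.4%, against 3.77% of all genes) and 2 fell (8.7%, against 11.2%). In the fit without the block 0 passed, with 4 higher and 1 lower at an unadjusted limma p under 0.05. GADD45A, a stress-induced growth arrest gene, rose by 0.60 and FOXO3 itself by 0.37, while TRIB2 fell by 0.45. BCL2L11 and CDKN1B belong to this list as well. Among 14 mTORC1 inhibitors DEPTOR rose, whereas DDIT4 (REDD1) fell by 0.69 and NPRL3 by 0.15. Among 24 components of the PI3K, AKT and mTOR pathway 7 fell (29.2%, against 11.2% of all genes) and 0 rose. At an unadjusted limma p under 0.05, 3 were higher, and after quantile normalization 6 fell and 4 rose. INPP5D, the lipid phosphatase SHIP1, fell by 0.81, with 7.65 to 8.01 on PD325901 arrays and 8.5 to 8.78 on DMSO arrays. PIK3CD, the leukocyte PI3K catalytic subunit, fell by 0.44 and RICTOR, of mTOR complex 2, also by 0.44.

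Of 22 genes of the IL-6, JAK and STAT3 pathway, through which the cytokine in the medium signals, 3 rose (13.6%) and 4 fell (18.2%). Among all genes 3.77% rose and 11.2% fell. The median DMSO level of the list was 8.73, and 6.68% of all genes at 8 to 9 rose and 18.5% fell. IL6ST, the shared receptor chain gp130, read 11.91, 11.90, 10.93 and 11.49 with PD325901, against 11.46, 11.48, 10.92 and 11.03 with DMSO. The mean rise was 0.33 (SE 0.056), with a difference of 0.00 in replicate 3. SOCS2 and SOCS3, feedback inhibitors of the pathway, rose by 0.35 and 0.21. PTPN6, the phosphatase SHP-1, fell by 0.71, with 7.26 to 7.46 on PD325901 arrays and 7.97 to 8.12 on DMSO arrays, and the kinase PIM1 fell by 0.22. STAT3 and IL6R did not pass, at -0.00 and 0.01.

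Surface and secreted molecules of myeloma moved in both directions. CD44, a receptor of hyaluronan, read 11.65, 11.32, 11 and 10.80 with PD325901, against 12.26, 12.01, 11.71 and 11.65 with DMSO. The highest PD325901 array and the lowest DMSO array met at 11.65 and all others were further apart, with a difference of -0.72 (SE 0.048). The integrin chain ITGAL (CD11a) fell by 0.53 and CXCR4, the homing receptor for CXCL12, by 0.24. PECAM1 (CD31) rose by 0.53, ITGA6 by 0.35 and ITGAV by 0.29. DKK1 and FRZB, antagonists of WNT that myeloma cells are known to secrete, rose by 0.41 and 0.51. The receptor tyrosine kinase KIT fell by 0.47. Of 44 cytokines and chemokines 8 fell (18.2%, against 11.2% of all genes) and 1 rose (2.27%, against 3.77%). Besides CCL2 and IL16, TNFSF10 (TRAIL) fell by 0.92, HBEGF, a ligand of the EGF receptor, by 0.36 and IL10 by 0.34. The rise was that of IL15, by 0.26. TNFSF10 follows the interferon pattern of replicate 2, with 10.84 against 7.64 to 7.95 on the other PD325901 arrays and 12.09 against 8.54 to 8.80 on the other DMSO arrays.

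The Raf inhibitor SB590885 acts 1 step above MEK, and the direct paired comparison of PD325901 with SB590885 uses no DMSO array. An earlier analysis of the same data described the pairing of SB590885 arrays by number as weak, and it was not checked again here. The interferon median of replicate 2 was 8.32 with SB590885, against 10.85 with PD325901. With the block 5145 probe sets passed, and 398 without it, so the counts below rest on that pairing. Without doses or times in the labels, it compares 2 treatments as they were applied. Of 19775 genes, 754 were higher with PD325901 than with SB590885 (3.81%) and 1842 lower (9.31%). Of the 20 largest falls, chosen on these PD325901 arrays, 19 were lower with PD325901 than with SB590885. DUSP6 had a difference of -1.67 from SB590885, SPRED2 of -1.49, DUSP5 of -1.51 and ETV5 of -0.61. DUSP4 (-0.53, adjusted p = 0.0399) and CCL2 (-0.60, adjusted p = 0.0379) passed narrowly, and CD48 (-0.45, adjusted p = 0.338) did not pass.

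Against DMSO, with the same DMSO arrays, SB590885 gave -0.97 for DUSP6, -0.34 for SPRED2 and -1.21 for ETV5. IGLC1 differed by 0.00 with SB590885 and by -2.03 with PD325901, and the direct difference was -2.03 (adjusted p = 6.29e-05). RAB11FIP1 rose by 0.52 with SB590885, against its fall of 1.14 with PD325901 (direct difference -1.66). DCLK1 fell by 0.82 with SB590885, against its rise of 0.99 with PD325901 (direct difference 1.81, adjusted p = 1.44e-05). Of the 20 largest rises, also chosen on these PD325901 arrays, 15 were higher with PD325901 than with SB590885 and 1, JUN, was lower. For falls and rises alike the choice favoured the direction found, so these counts are no independent support.

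Of the 27 ER folding genes, 16 were higher with PD325901 than with SB590885 and 2 lower, where 3.81% and 9.31% of all genes were. PDIA3 differed by 1.00 and CRELD2 by 0.70, whereas EIF2AK3 (0.07, adjusted p = 0.892) and DNAJB9 (0.07, adjusted p = 0.697) did not pass. Of 35 ribosome biogenesis genes 1 was higher and 0 lower with PD325901 than with SB590885 (10 and 1 at an unadjusted limma p under 0.05). Of 30 replication-dependent histone genes 22 were lower with PD325901 than with SB590885 (9.31% of all genes). Against DMSO, 1 of them rose and 4 fell with PD325901, and 19 rose with SB590885 (7.1% of all genes).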

How the data were processed

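RNA of 8 INA-6 samples was hybridised to Affymetrix HG-U133 Plus 2.0 arrays. The deposited values are log2 expression levels per probe set, computed by the authors with RMA in R 3.0.1, per the submitters' processing notes. Filters and the set of arrays normalised together were not given in the sources used here. No count or depth applies, and the number of arrays limits the precision. Of 54675 probe sets 62 controls were left out. The platform annotation gave 1 symbol for 41091, several for 1801 and none for 11721, and the probe set with the highest mean stood for each of 19775 genes.

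PD325901 was compared with DMSO in limma 3.58.1 (R 4.3.3) on 8 arrays with the replicate number as a block, empirical Bayes moderation and Benjamini-Hochberg adjustment over 54613 probe sets. The prior had 33.6 degrees of freedom and the residual 3, so most of each gene's error estimate is shared across probe sets. PD325901 against SB590885, and SB590885 against DMSO, were fitted likewise. The pairing was checked: deviations from group means of same-numbered PD325901 and DMSO arrays correlated at 0.735 to 0.869. Different numbers correlated at 0.242 to 0.611 if both or neither were R-marked and at -0.682 to -0.523 otherwise. Among R-marked arrays the margin was small, 0.735 and 0.737 for the same number against 0.611 and 0.592 for different ones.

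The members, the 42 gene lists (944 of 1049 symbols measured) and the tests were chosen with earlier results of these data known. Named genes are the 20 largest falls and rises that passed with 4 pairs of 1 sign and a group mean of at least 6.92, up to 4 members with the smallest p per list, the pathway output list and kinase genes. Other named members were chosen after their values were seen. Alternatives were the block, the arrays fitted, scaling, probe set choice, moderation, left-out replicates and a threshold of 0.01. After the data were seen, R arrays averaged with those of their number were added. Promoter sequences are RefSeq's. Some genes are not reported here.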

Additional observations from a re-analysis of the deposited data

Results flagged for a closer look

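Of 318 groups of 4 arrays examined, 19 held an array far from the other 3 by Dixon's criterion, which chance alone meets in about 1 in 20 groups, a share close to that found. Replicate 2 was the high array in 16 of the 19. In the interferon response median it read 10.85 with PD325901 and 10.89 with DMSO. The interferon-induced genes followed: TNFSF10 read 10.84 with PD325901 and 12.09 with DMSO, HERC5 11.11 and 11.63, OAS1 11.09 and 11.44, and ISG20 13.26 and 13.12. PSMB9, an interferon-induced proteasome subunit, read 11.84 on the DMSO array. Other high values of replicate 2 were small in size: H2BC21 at 7.34 with PD325901 and 7.16 with DMSO, ARAF at 8.64 with PD325901, and MKI67 at 9.87 and ESPL1 at 10.05 with DMSO. Single low arrays were ETV5 at 6.70 in replicate 1 of PD325901, MAP2K2 at 9.24 in replicate 3 of PD325901 and FRZB at 6.63 in replicate 1 of DMSO.

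The paired difference itself differed between R-marked and unmarked pairs for 6 of 54613 probe sets (0.011%) in limma's interaction test. The metallothioneins MT1G and MT1H, which bind zinc and copper, had interaction terms of 0.95 (adjusted p = 0.000149) and 0.60 (adjusted p = 0.00848). MT1G read higher with PD325901 in both R-marked pairs and lower in both others, on a background in which replicate 1 read 12.29 with PD325901 and 12.83 with DMSO, against 8.24 to 9.01 and 8.15 to 8.47 on the other arrays. For CKAP2, a spindle protein, the term was 0.72, and for the least responsive probe set of DUSP6 it was 0.59, both falls being smaller in the R-marked pairs. ID2 had -0.55, its fall being larger there. CCNG2, a FOXO target, had -0.49, with a difference of 0.47 in the unmarked pairs and a difference of -0.03 in the R-marked ones. What the R mark stands for was not given, and the source of these differences was not tested.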

How the results depend on the processing

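The number of calls depended on the block and the scaling, the direction of the named genes hardly at all. Without the replicate block 19 probe sets rose and 103 fell (10 and 64 genes, 2820 probe sets at an unadjusted limma p under 0.05). Of 158 named genes 121 no longer passed and 0 changed direction. With all 12 arrays, 654 and 1971 probe sets (326 and 1078 genes) passed with the block, and 30 and 159 (15 and 94 genes) with no replicate block. The R mark in place of the number gave 558 and 1878 (281 and 1026 genes). Quantile normalization gave 2360 and 2509 (1296 and 1166 genes). Centring the arrays on their medians gave 1115 and 5310 probe sets, of which 17.4% rose. The unmarked pairs alone gave 1794 and 2025 probe sets (898 and 990 genes), the R-marked pairs alone 993 and 4563 (462 and 2389 genes), with fewer arrays in each. At an adjusted p under 0.01, 878 and 2829 probe sets (443 and 1475 genes) passed. With the R arrays averaged with those of their number, a setting chosen after seeing the data that leaves 2 pairs, 2418 and 5766 probe sets passed (1150 and 2907 genes), and 0 of 158 named genes lost their call or changed direction. Leaving out 1 replicate gave 964 to 1394 and 2512 to 4771 probe sets, and 489 to 707 and 1274 to 2491 genes. The lowest counts came without replicate 4, and without replicate 3 the falls were 2712 probe sets and 1415 genes.

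The R mark interaction held 6 probe sets, and 2 after quantile normalization. PD325901 against SB590885 gave 5145 probe sets, 398 with no replicate block and 3324 to 3924 without 1 replicate, the lowest without replicate 1. Differences near 0 changed sign: with the mean of all probe sets, NPRL3 at 0.00, PHLDA1 at -0.07 and ARAF at 0.02, and after quantile normalization ARAF at 0.02 and MAP2K2 at 0.03. The causes of these changes were not tested.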

Other observations

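Interferon response genes moved in both directions within pairs, on top of the high replicate 2. Of 39 members, 9 fell (23.1%, against 11.2% of all genes) and 4 rose (10.3%, against 3.77%) with PD325901. The median DMSO level of the list was 8.2, and 18.5% of all genes at 8 to 9 fell and 6.68% rose. After quantile normalization 7 rose and 5 fell. Without the block 0 passed (limma, 0 also at an unadjusted p under 0.05), and 0 passed with all 12 arrays and the block. HERC5, an enzyme that attaches ISG15 to proteins, fell by 0.77, OAS1, whose product activates RNase L, by 0.74 and IFITM1, a membrane protein that restricts viral entry, by 0.70, each in 4 of 4 pairs. ISG20, an exonuclease, read 10.93, 13.26, 10.69 and 10.93 with PD325901 and 10.00, 13.12, 10.01 and 10.34 with DMSO, and rose by 0.59 in 4 of 4 pairs, by least in replicate 2. Among 28 proteasome subunits 5 fell (17.9%, against 11.2% of all genes). Their median DMSO level was 12.34, and 18.5% of all genes at 12 and above fell, so the count is near the share at that level. Of the 5, PSMB8, PSMB9 and PSMB10, the catalytic subunits of the immunoproteasome, fell by 0.54, 0.27 and 0.25. After quantile normalization 3 fell, with 1 in replicates 1 and 2 alone, 7 in the R-marked pairs alone and 0 without the block (limma, 0 also at an unadjusted p under 0.05).

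Genes of carbohydrate and lipid metabolism changed singly. SLC2A3, the glucose transporter GLUT3, read 8.25, 8.37, 7.98 and 8.04 with PD325901, against 9.09, 9.14, 8.86 and 9.0 with DMSO, a fall of 0.86 (SE 0.047). HK2, the hexokinase that traps glucose, fell by 0.41 and PFKFB3, which stimulates glycolysis, by 0.32, while PDK1, which restrains pyruvate dehydrogenase, rose by 0.69 and the peptide hormone gene ADM by 0.60. Of 28 glycolysis and hypoxia genes 7 fell (25%, against 11.2% of all genes) and 2 rose. Their median DMSO level was 10.94, and 33.4% of all genes at 10 to 11 fell, so the share of falls was not above that of their level. After quantile normalization 4 fell, as in replicates 1 and 2 alone, while 7 fell in the R-marked pairs alone, 5 without replicate 3 and 1 without the block. ELOVL6, which elongates fatty acids, fell by 1.03, to 8.34 to 8.85 on PD325901 arrays, against 9.43 to 9.76 on DMSO arrays. Of 35 genes of the amino acid response 10 fell (28.6%, against 11.2% of all genes) and 2 rose. The median DMSO level of the list was 9.14, and 28.2% of all genes at 9 to 10 fell. CEBPB and TRIB3 led the falls at -0.53 each, with PSAT1 at -0.42. After quantile normalization 4 fell and 5 rose.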
